A study of Mus musculus with 9 samples.

Results

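Chemokine gene expression was followed in the retina of mice with oxygen-induced retinopathy (OIR), a model of retinal hypoxia and vessel growth. The 10 genes described are the ligands Ccl2, Ccl3, Ccl4, Ccl7, Ccl12, Cxcl1, Cxcl10, Cxcl12, Cxcl16 and Cx3cl1. They were picked by symbol from a table of 25108 genes and gene models, and all 10 were found. The animals were C57BL/6 mice of postnatal day 17, and their retinal libraries formed 3 groups of 3. OIR KO mice lacked Il19, the gene of the cytokine interleukin 19, and had retinopathy. OIR WT mice were wild type and had retinopathy, and RA WT mice were wild type and stayed in room air. Room-air knockouts were not analysed here, and the genotypes are set against each other in retinopathy alone. The labels do not say how the knockout was made, nor whether the libraries of a group came from separate animals or pools, so the p-values only weigh differences against the variation among these samples, part of which may be technical.

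In this model newborn pups breathe high oxygen, which halts and prunes the growing retinal vessels. Back in room air, the poorly perfused retina becomes hypoxic and sends vessels into the vitreous. Chemokines are small secreted proteins that steer cells through receptors coupled to G proteins. Most CC ligands attract monocytes, macrophages and lymphocytes, and the CXC ligands include neutrophil attractants (Cxcl1), interferon-induced lymphocyte attractants (Cxcl10) and the homeostatic ligand Cxcl12, which guides blood-forming and endothelial cells. Cx3cl1 (fractalkine) and Cxcl16 are made as membrane-bound proteins that proteases can release, and neuronal Cx3cl1 acts on microglia, the resident macrophages of the retina. Inflammatory chemokine genes are typically switched on through NF-kappaB and, for Cxcl10, through interferon response factors.

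The sequence just upstream of the start of 4 of the inducible members is given to show where sites for those regulators lie. The sequences are the 250 bases before the RefSeq start (GRCm38.p6), 5′ to 3′ on the strand of the gene. Capitals mark matches to the motifs searched on both strands.
Cxcl1 (chr5:90890995-90891244, plus strand): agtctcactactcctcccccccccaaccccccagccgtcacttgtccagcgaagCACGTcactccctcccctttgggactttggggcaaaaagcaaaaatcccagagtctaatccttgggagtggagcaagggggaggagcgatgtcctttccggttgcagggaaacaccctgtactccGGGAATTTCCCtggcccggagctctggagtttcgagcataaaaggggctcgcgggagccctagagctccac
Cxcl10 (chr5:92348890-92349139, minus strand): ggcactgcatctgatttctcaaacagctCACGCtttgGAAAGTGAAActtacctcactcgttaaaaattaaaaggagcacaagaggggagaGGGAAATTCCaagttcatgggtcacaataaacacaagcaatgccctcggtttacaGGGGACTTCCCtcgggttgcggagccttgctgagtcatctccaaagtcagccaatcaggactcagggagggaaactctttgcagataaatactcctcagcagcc
Ccl3 (chr11:83649379-83649628, minus strand): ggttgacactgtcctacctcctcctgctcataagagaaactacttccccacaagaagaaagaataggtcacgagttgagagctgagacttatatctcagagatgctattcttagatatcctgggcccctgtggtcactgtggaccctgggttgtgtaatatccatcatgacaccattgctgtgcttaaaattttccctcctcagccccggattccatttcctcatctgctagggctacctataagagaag
Ccl12 (chr11:82101595-82101844, plus strand): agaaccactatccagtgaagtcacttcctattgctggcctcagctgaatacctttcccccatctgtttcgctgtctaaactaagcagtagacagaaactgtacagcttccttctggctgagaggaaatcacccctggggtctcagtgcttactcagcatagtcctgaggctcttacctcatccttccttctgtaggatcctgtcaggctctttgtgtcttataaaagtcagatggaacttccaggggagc

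The motifs were the NF-kappaB site by name, the core of the interferon-stimulated response element (ISRE, a pair of GAAA runs with any 2 bases between them), and GCGTG and ACGTG, the core of the hypoxia response element. The Cxcl1 window held overlapping NF-kappaB matches on both strands, 71 to 61 bases upstream of the start, and ACGTG on the opposite strand at 196 to 192 bases. The Cxcl10 window held an ISRE core at 213 to 204 bases, an NF-kappaB match at 159 to 150 bases and overlapping NF-kappaB matches at 104 to 94 bases, and GCGTG on the opposite strand at 222 to 218 bases. None of these letters stood in the windows of Ccl3 and Ccl12, nor in those of Cxcl12 and Cx3cl1, and windows for Ccl2, Ccl4, Ccl7 and Cxcl16 were not used here. Among 32841 RefSeq windows of this length, 7.25% held the NF-kappaB motif, 2.98% the ISRE core, 28.2% GCGTG and 16.6% ACGTG.

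Values are FPKM, fragments scaled by gene length and by library size. Levels of different genes can be set side by side only roughly, since how transcript lengths entered the FPKM is not given. Replicate values are given in the order 1, 2, 3. Genes with at least 0.5 FPKM in at least 3 of the 9 libraries were tested (15678), with limma on log2(FPKM + 0.5) and p-values adjusted over all of them by Benjamini and Hochberg. Log2 differences are on that scale and understate the change of genes with low FPKM. A gene was called at an adjusted p under 0.05. Of the 10 members, 9 were tested, and 6 of these (Ccl2, Ccl3, Ccl4, Ccl7, Ccl12 and Cxcl10) passed the filter through retinopathy libraries alone, so their number is no measure of how often chemokines respond.

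The total depth of the libraries is unknown, and their relative depth, from the smallest steps in the values of 4521 genes with 1 transcript, ran from 0.853 to 1.14 of the mean. Retina is what the markers showed: Gnat1, the transducin subunit of rods, stood between 2764 and 4115 FPKM. Il19 was listed at 0 in all OIR KO libraries, but also in all OIR WT libraries and in RA WT 2 and 3, with 0.0406 FPKM in RA WT 1, so its level does not check the genotype. On the leading principal component (47.2% of the variance) OIR KO 3 was the retinopathy library nearest to RA WT. The summed Y-linked genes were 0 in OIR KO 1 and RA WT 2, 32.9 FPKM in RA WT 3 and 48.05 to 64.4 FPKM in the others. OIR KO 1 therefore was no technical repeat of the other OIR KO libraries, and RA WT 2 and 3 were none of each other or of RA WT 1. The lens gene Cryaa reached 7.68 FPKM in OIR KO 2 and 11.6 FPKM in RA WT 1.

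The members fell into a set that was at or near 0 in room air and a set that was present in every library. Ccl2, Ccl3, Ccl4, Ccl7, Ccl12, Cxcl1 and Cxcl10 did not exceed 0.163 FPKM in any RA WT library, and each was above 0 in at least 5 of the 6 retinopathy libraries. Their sum was 5.24, 14.0 and 1.42 FPKM in OIR KO and 12.8, 4.17 and 17.7 FPKM in OIR WT, against 0.0336, 0.0746 and 0.163 FPKM in RA WT. Every retinopathy library lay above every room-air library in this sum, and OIR KO 3 was the lowest retinopathy library. The set was formed by its low room-air values in these same libraries. The gap in the sum and the shares that follow largely restate that choice and are no separate result. Cxcl12, Cxcl16 and Cx3cl1 held 85.2, 74.1 and 88.9% of the summed level of the 10 genes in OIR KO and 71.3, 86.7 and 55.5% in OIR WT, against 99.8, 99.9 and 99.7% in RA WT.

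**Figure D1:**
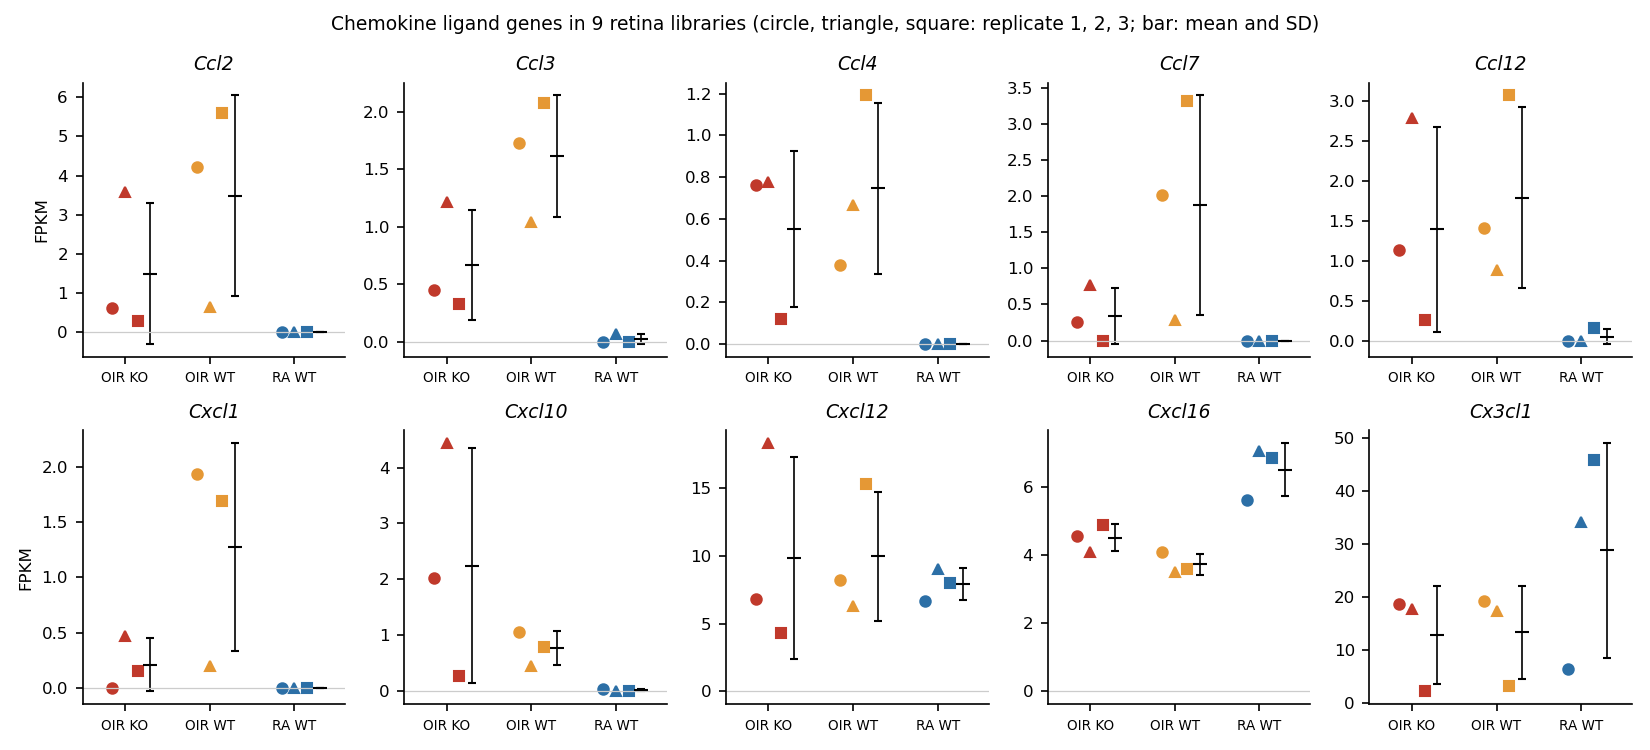
FPKM of the 10 chemokine genes in each of the 9 libraries, with the groups OIR KO, OIR WT and RA WT from left to right; circle, triangle and square are replicates 1, 2 and 3, and the bar beside each group is its mean and SD (n = 3). Ccl2, Ccl4, Ccl7 and Cxcl1 are listed at 0 in all 3 RA WT libraries, Cxcl16 is lower in all 6 retinopathy libraries than in RA WT, and Cx3cl1 spreads widely within each group.

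The genes of the monocyte attractants Ccl2, Ccl7 and Ccl12 lie close together on chromosome 11 of GRCm38, all on the plus strand: Ccl2 (ENSMUSG00000035385) at chr11:82035571-82037453, Ccl7 (ENSMUSG00000035373) at chr11:82045712-82047525 and Ccl12 (ENSMUSG00000035352) at chr11:82101845-82103400. Their products act through the receptor Ccr2. In OIR WT, all 3 genes rose over RA WT by the test. In OIR KO, none of the 3 passed it, although Ccl2 and Ccl12 were higher in every OIR KO library than in every RA WT library.

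Ccl2 was at 0.615, 3.57 and 0.287 FPKM in OIR KO and at 4.22, 0.642 and 5.61 FPKM in OIR WT, and was listed at 0 in all RA WT libraries. OIR KO 2, OIR WT 1 and OIR WT 3 were the high libraries, and the retinopathy groups overlapped. The log2 difference was 1.61 (SE 0.74, adjusted p = 0.202) for OIR KO against RA WT and 2.68 (SE 0.74, adjusted p = 0.0442) for OIR WT against RA WT. The gene Gm17268, which overlaps Ccl2 on the other strand, was listed at 0 in every library.

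Ccl7 was at 0.253, 0.768 and 0 FPKM in OIR KO and at 2.02, 0.285 and 3.32 FPKM in OIR WT, and was listed at 0 in all RA WT libraries. OIR WT 1 and OIR WT 3 stood out, OIR WT 2 lay among the OIR KO values, and OIR KO 3 did not differ from room air. The log2 difference from RA WT was 0.64 in OIR KO (SE 0.55, adjusted p = 0.492) and 1.97 in OIR WT (SE 0.55, adjusted p = 0.0418).

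Ccl12, a mouse gene for a further Ccr2 ligand, was at 1.13, 2.79 and 0.269 FPKM in OIR KO and at 1.42, 0.894 and 3.08 FPKM in OIR WT, against 0, 0 and 0.163 FPKM in RA WT. Each retinopathy group lay wholly above RA WT, and the retinopathy groups overlapped along most of their range. The log2 difference from RA WT was 1.55 in OIR KO (SE 0.51, adjusted p = 0.0910) and 1.95 in OIR WT (SE 0.51, adjusted p = 0.0348).

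The 3 calls in OIR WT rested on few libraries. Without any one of OIR WT 1, OIR WT 3, RA WT 1, RA WT 2 or RA WT 3, each was lost (adjusted p from 0.0907 to 0.138 for Ccl2, from 0.0910 to 0.134 for Ccl7 and from 0.0741 to 0.103 for Ccl12), and with a pseudocount of 1 the adjusted p was 0.0633, 0.0532 and 0.0534 for Ccl2, Ccl7 and Ccl12. Since all 9 libraries share the estimate of the spread, the calls were also lost without OIR KO 1 (adjusted p = 0.0646, 0.0659 and 0.0557 for Ccl2, Ccl7 and Ccl12).

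Ccl3 and Ccl4, the macrophage inflammatory proteins that activated microglia and macrophages release, are neighbours on the same chromosome. Ccl3 (ENSMUSG00000000982, chr11:83647844-83649355, minus strand) and Ccl4 (ENSMUSG00000018930, chr11:83662584-83664683, plus strand) are 13.2 kb apart. Ccl3 rose over RA WT in both retinopathy groups, and Ccl4 rose in OIR WT.

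Ccl3 was at 0.453, 1.21 and 0.331 FPKM in OIR KO and at 1.73, 1.04 and 2.07 FPKM in OIR WT, against 0, 0.0746 and 0 FPKM in RA WT. All 6 retinopathy libraries exceeded room air, and OIR KO 2 lay above OIR WT 2 while OIR KO 1 and OIR KO 3 lay below every OIR WT library. Its means were 0.665 ± 0.478 FPKM in OIR KO and 1.61 ± 0.526 FPKM in OIR WT (SD, n = 3 each). The log2 difference from RA WT was 1.08 in OIR KO (SE 0.28, adjusted p = 0.0396) and 1.98 in OIR WT (SE 0.28, adjusted p = 0.00324).

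The Ccl3 call in OIR WT held without any single one of the 6 libraries compared (adjusted p from 0.00475 to 0.0164). The call in OIR KO was lost without OIR KO 1 (adjusted p = 0.0717), OIR KO 2 (0.101) or any RA WT library (0.0899, 0.0718 and 0.115 without RA WT 1, 2 and 3), through the shared spread without OIR WT 1 (0.0585), and also in 6 of the 10 other settings tried.

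Ccl4 was at 0.762, 0.775 and 0.121 FPKM in OIR KO and at 0.380, 0.666 and 1.19 FPKM in OIR WT, and was listed at 0 in all RA WT libraries. OIR KO 3 was the lowest retinopathy library and the others were interleaved by genotype. The log2 difference from RA WT was 1.00 in OIR KO (SE 0.31, adjusted p = 0.0683) and 1.27 in OIR WT (SE 0.31, adjusted p = 0.0232). The call in OIR WT did not survive leaving out OIR WT 3 (adjusted p = 0.0813) or RA WT 1, 2 or 3 (0.0543, 0.0646 and 0.0688), and OIR KO passed the test without OIR KO 3 (adjusted p = 0.0133).

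Cxcl1 (ENSMUSG00000029380, chr5:90891241-90893115, plus strand) encodes a neutrophil attractant that binds Cxcr2. It was at 0, 0.473 and 0.152 FPKM in OIR KO and at 1.94, 0.196 and 1.69 FPKM in OIR WT, and was listed at 0 in all RA WT libraries. OIR WT 1 and OIR WT 3 carried nearly all of it, and OIR WT 2 lay within the OIR KO range. With 2 libraries at 0.5 FPKM or more it did not pass the filter. The exact two-sided permutation p was 0.4 for OIR KO against RA WT and 0.1 for OIR WT against RA WT, where 0.1 is the smallest p that 3 against 3 allows.

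Cxcl10 (ENSMUSG00000034855, chr5:92346638-92348889, minus strand), an interferon-induced ligand of Cxcr3, was the inducible member with the higher mean in the knockout. It was at 2.02, 4.44 and 0.262 FPKM in OIR KO and at 1.06, 0.451 and 0.779 FPKM in OIR WT, against 0.0336, 0 and 0 FPKM in RA WT. OIR KO 1 and OIR KO 2 exceeded every OIR WT library and OIR KO 3 lay below them all. The means were 2.24 ± 2.10 FPKM in OIR KO and 0.763 ± 0.304 FPKM in OIR WT (SD, n = 3 each).

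The log2 difference of Cxcl10 from RA WT was 2.05 in OIR KO (SE 0.57, adjusted p = 0.0554) and 1.28 in OIR WT (SE 0.57, adjusted p = 0.171), so neither passed the test, although both groups lay wholly above RA WT. Without OIR KO 3 the OIR KO difference was 2.79 with an adjusted p of 0.00184. The OIR WT difference then had, through the shared spread, an adjusted p of 0.0142. With a pseudocount of 0.1 both comparisons passed (adjusted p = 0.0176 for OIR KO and 0.0347 for OIR WT). With only the 6 libraries compared in the fit, OIR WT passed (adjusted p = 0.00615) and OIR KO did not. Without the trend and robust options, OIR KO passed (adjusted p = 0.0478) and OIR WT did not. Art3 overlaps Cxcl10 on the other strand, and the sources used here do not say whether strand was used in counting. Art3 was at 5.08, 2.85 and 5.18 FPKM in OIR KO and at 1.66, 1.69 and 2.33 FPKM in OIR WT, against 2.27, 3.37 and 2.16 FPKM in RA WT. Art3 was higher in every OIR KO library than in every OIR WT library (log2 difference 1.00, SE 0.23, adjusted p = 0.211, not called), the direction in which the Cxcl10 means differed. It was high in OIR KO 1, where Cxcl10 was also high, and in OIR KO 3, where Cxcl10 was low, and the part of reads shared between them was not tested.

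Among the members present in every library, Cxcl16 was lower in both retinopathy groups, and Cxcl12 and Cx3cl1 did not pass the test in any comparison. Cxcl16 (ENSMUSG00000018920, chr11:70453983-70459984, minus strand), a ligand of Cxcr6, was at 4.58, 4.10 and 4.88 FPKM in OIR KO and at 4.10, 3.51 and 3.59 FPKM in OIR WT, against 5.62, 7.07 and 6.88 FPKM in RA WT. Every retinopathy library lay below every RA WT library. The mean was 4.52 ± 0.395 FPKM in OIR KO and 3.73 ± 0.317 FPKM in OIR WT, against 6.52 ± 0.790 FPKM in RA WT (SD, n = 3 each).

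Cxcl16 fell to 0.693 of the RA WT mean in OIR KO (log2 difference -0.48, SE 0.12, adjusted p = 0.0380) and to 0.572 of it in OIR WT (log2 difference -0.73, SE 0.12, adjusted p = 0.00595). The call in OIR WT held without any single one of the 6 libraries (adjusted p from 0.00863 to 0.0250). The call in OIR KO was lost without OIR KO 1 (adjusted p = 0.0961), OIR KO 2 (0.126), RA WT 2 (0.102) or RA WT 3 (0.111), and through the shared spread without OIR WT 1 (0.0528) or OIR WT 3 (0.0539). Zmynd15, which overlaps Cxcl16 on the other strand, stayed between 0.672 and 1.30 FPKM in all libraries and was not called.

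Cxcl12 (ENSMUSG00000061353, chr6:117168535-117181367, plus strand), the ligand of Cxcr4 and Ackr3, was at 6.84, 18.3 and 4.33 FPKM in OIR KO and at 8.24, 6.31 and 15.3 FPKM in OIR WT, against 6.65, 9.01 and 8.0 FPKM in RA WT. The highest libraries, OIR KO 2 and OIR WT 3, lay above room air, and the other 4 retinopathy libraries lay within its range or below it. The SD was 7.46 FPKM in OIR KO and 4.73 FPKM in OIR WT, against 1.18 FPKM in RA WT. The log2 difference from RA WT was 0.07 in OIR KO (95% interval -1.06 to 1.20, adjusted p = 0.947) and 0.23 in OIR WT (-0.90 to 1.36, adjusted p = 0.789), and its sign turned without OIR KO 2 (-0.48) and without OIR WT 3 (-0.11).

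Cx3cl1 (ENSMUSG00000031778, chr8:94772009-94782427, plus strand) was at 18.8, 17.7 and 2.21 FPKM in OIR KO and at 19.4, 17.5 and 3.22 FPKM in OIR WT, against 6.38, 34.2 and 45.9 FPKM in RA WT. One library of each group, OIR KO 3, OIR WT 3 and RA WT 1, lay far below its group mates. The ratio of the highest to the lowest library was 8.51 in OIR KO and 6.02 in OIR WT, against 7.19 in RA WT. The log2 difference from RA WT was -1.18 in OIR KO (SE 1.06, adjusted p = 0.520) and -1.02 in OIR WT (SE 1.06, adjusted p = 0.563). The annotation holds 6 transcripts of Cx3cl1, between 377 and 3315 bases long, and the sources used here do not say how their lengths entered the FPKM.

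**Figure D2:**
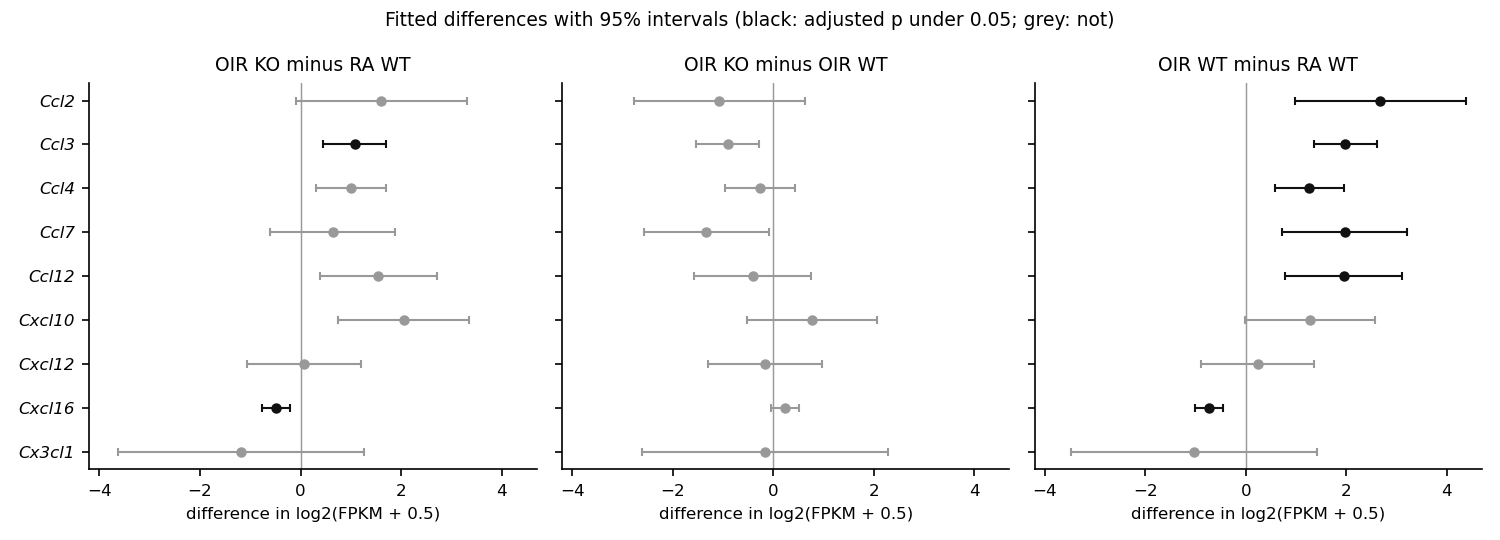
Fitted log2 differences of the 9 tested chemokine genes, as log2(FPKM + 0.5), with 95% intervals, for OIR KO minus RA WT, OIR KO minus OIR WT and OIR WT minus RA WT; black marks an adjusted p under 0.05 and grey the others. Black points are Ccl3 and Cxcl16 in the left panel, none in the middle panel, and Ccl2, Ccl3, Ccl4, Ccl7, Ccl12 and Cxcl16 in the right panel.

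Counted over the tested members, 1 rose (Ccl3) and 1 fell (Cxcl16) of 9 in OIR KO against RA WT, where 10.4% of all tested genes were called, 4.75% as higher and 5.69% as lower. In OIR WT against RA WT, 5 rose (Ccl2, Ccl3, Ccl4, Ccl7 and Ccl12) and 1 fell (Cxcl16), where 16.0% of all tested genes were called, 8.04% as higher and 7.92% as lower. The median log2 difference of the 9 was 1.00 in OIR KO and 1.28 in OIR WT against RA WT, beside medians over all tested genes of 0.02 and 0.01. These comparisons share the RA WT libraries, and the filter favoured genes high in retinopathy. The groups did not overlap for 6 of the 9 tested members in OIR KO against RA WT, 5 higher and 1 lower, beside 32.7% of all tested genes (17.3% higher and 15.4% lower). They did not overlap for 7 of 9 in OIR WT against RA WT, 6 higher and 1 lower, beside 35.0% of all tested genes (17.8% higher and 17.2% lower).

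The comparison of OIR KO with OIR WT asks how loss of Il19 bears on the chemokines in retinopathy. Both groups have the same wild-type room-air reference, so it also tests whether their differences from RA WT differ. Without room-air knockouts, it cannot separate the response to retinopathy from a genotype difference already there in room air. No member was called by limma, where 0.134% of all tested genes were called, 0.0574% as higher and 0.0765% as lower. At an unadjusted p under 0.05 there were 2 of 9 members, Ccl3 and Ccl7, beside 9.91% of all tested genes, and both were lower in OIR KO. Every member's values overlapped between the genotypes, while 17.7% of all tested genes did not overlap (9.73% higher and 7.98% lower in OIR KO).

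The mean of Ccl3 in OIR KO was 0.412 of that in OIR WT (log2 difference -0.90, 95% interval -1.53 to -0.27, adjusted p = 0.350), and that of Ccl7 was 0.182 of it (-1.33, -2.57 to -0.08, adjusted p = 0.479). For Ccl2 the difference was -1.07 (95% interval -2.77 to 0.63, adjusted p = 0.690), with means of 1.49 ± 1.81 FPKM in OIR KO and 3.49 ± 2.56 FPKM in OIR WT (SD, n = 3 each). Cxcl1 averaged 0.163 of its OIR WT level in OIR KO (log2 difference -1.18, exact two-sided permutation p = 0.2). Of these 4 genes, OIR WT 2 held lower values than OIR KO 2 throughout, so that the genotypes were not separated for any.

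For the remaining members the intervals covered changes in both directions. They were -0.96 to 0.43 for Ccl4 (log2 difference -0.27, adjusted p = 0.831), -1.57 to 0.76 for Ccl12 (-0.40, adjusted p = 0.848) and -0.52 to 2.08 for Cxcl10 (0.78, adjusted p = 0.711). For Cxcl12 the interval was -1.30 to 0.97 (-0.16, adjusted p = 0.954), for Cxcl16 -0.03 to 0.52 (0.25, adjusted p = 0.566) and for Cx3cl1 -2.61 to 2.29 (-0.16, adjusted p = 0.982). Cx3cl1 had the widest interval of the 9 tested members and Cxcl16 the narrowest.

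The retinopathy libraries of each genotype spread widely. Of the 7 members near 0 in room air, OIR KO 3 was the lowest of the 6 retinopathy libraries for 6, and OIR KO 2 was among the top 3 for all 7. OIR WT 3 was among the top 2 for 6 of them, OIR WT 1 among the top 3 for 6, and OIR WT 2 among the top 3 for none. Ccl2, Ccl3 and Ccl7 put the libraries in the same order, namely OIR WT 3, OIR WT 1, OIR KO 2, OIR WT 2, OIR KO 1 and OIR KO 3. Ccl4, Ccl12, Cxcl1 and Cxcl10 departed from this order, Cxcl10 with OIR KO 2 and OIR KO 1 on top. Cxcl12, present in every library, also had OIR KO 2 and OIR WT 3 highest and OIR KO 3 lowest.

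Other genes went up and down with these libraries. Bcl3, a partner of NF-kappaB, was at 5.56, 32.6 and 2.98 FPKM in OIR KO and at 35.0, 7.76 and 37.4 FPKM in OIR WT, against 0.304, 0.246 and 0.929 FPKM in RA WT. Socs3, a feedback inhibitor of STAT3 signalling, was at 6.33, 33.2 and 2.90 FPKM in OIR KO and at 25.4, 9.59 and 45.0 FPKM in OIR WT, against 1.55, 2.01 and 2.15 FPKM in RA WT. Both had OIR KO 2, OIR WT 1 and OIR WT 3 high. The summed reactive glia markers Gfap, Vim, Serpina3n, Lcn2 and Pax2 were 279.7, 553 and 157 FPKM in OIR KO and 477, 201 and 511 FPKM in OIR WT, against 97.2, 105 and 125 FPKM in RA WT. The summed erythrocyte genes, haemoglobins and Alas2, were 112, 1070 and 113 FPKM in OIR KO and 1171, 512 and 1431 FPKM in OIR WT, against 94.9, 82.5 and 158 FPKM in RA WT. The same 3 retinopathy libraries were high in all of these. In OIR WT against RA WT, 3 of the 4 tested glial markers (Gfap, Serpina3n and Vim) and all 5 erythrocyte genes rose. In OIR KO against RA WT no gene of either list was called. The shares of all tested genes called higher were 8.04% in OIR WT and 4.75% in OIR KO. Neither list held a gene called between OIR KO and OIR WT, and the part of glia and blood cells in the chemokine values was not tested.

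**Figure D3:**
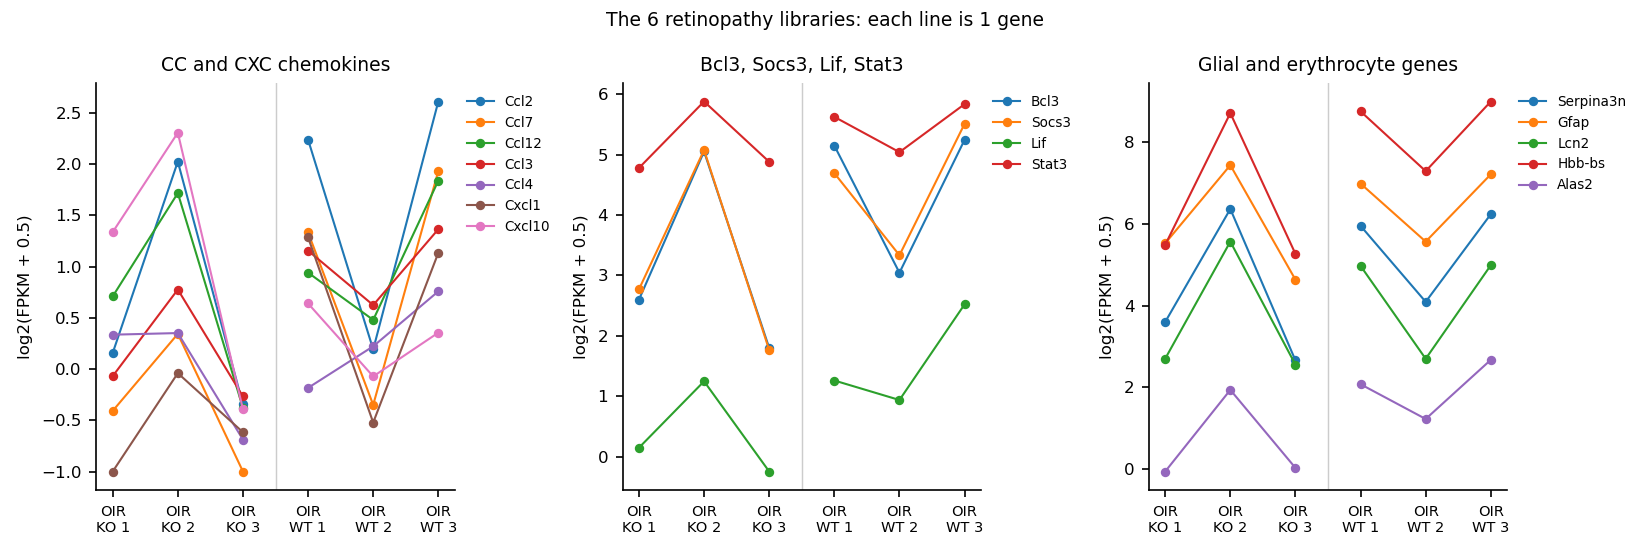
Level as log2(FPKM + 0.5) in the 3 OIR KO and 3 OIR WT libraries, with 1 line per gene: the 7 chemokines near 0 in room air on the left, Bcl3, Socs3, Lif and Stat3 in the middle, and glial and erythrocyte genes on the right; replicates have no order, and lines only join the points of a gene. OIR KO 2, OIR WT 1 and OIR WT 3 are high and OIR KO 3 is low for most genes. Ccl4 departs with a low OIR WT 1, and Cxcl10 is higher in OIR KO 1 and OIR KO 2 than in any OIR WT library.

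Ranked by mean FPKM, which depends on the transcript lengths used, Cx3cl1, Cxcl12 and Cxcl16 led in every group, in this order. In OIR KO their means of 12.9, 9.83 and 4.52 FPKM were followed by Cxcl10 (2.24), Ccl2 (1.49), Ccl12 (1.40), Ccl3 (0.665), Ccl4 (0.553), Ccl7 (0.341) and Cxcl1 (0.208). In OIR WT their means of 13.3, 9.95 and 3.73 FPKM were followed by Ccl2 (3.49), Ccl7 (1.87), Ccl12 (1.80), Ccl3 (1.61), Cxcl1 (1.28), Cxcl10 (0.763) and Ccl4 (0.746). In RA WT their means were 28.8, 7.89 and 6.52 FPKM. Neighbours in these orders differed by less than the larger of their SDs, except Cxcl16 and Cxcl10 in OIR KO, Cxcl12 and Cxcl16 in OIR WT, and the 3 leading genes in RA WT. Even there, RA WT 1 held slightly more Cxcl12 (6.65 FPKM) than Cx3cl1 (6.38 FPKM).

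**Figure D4:**
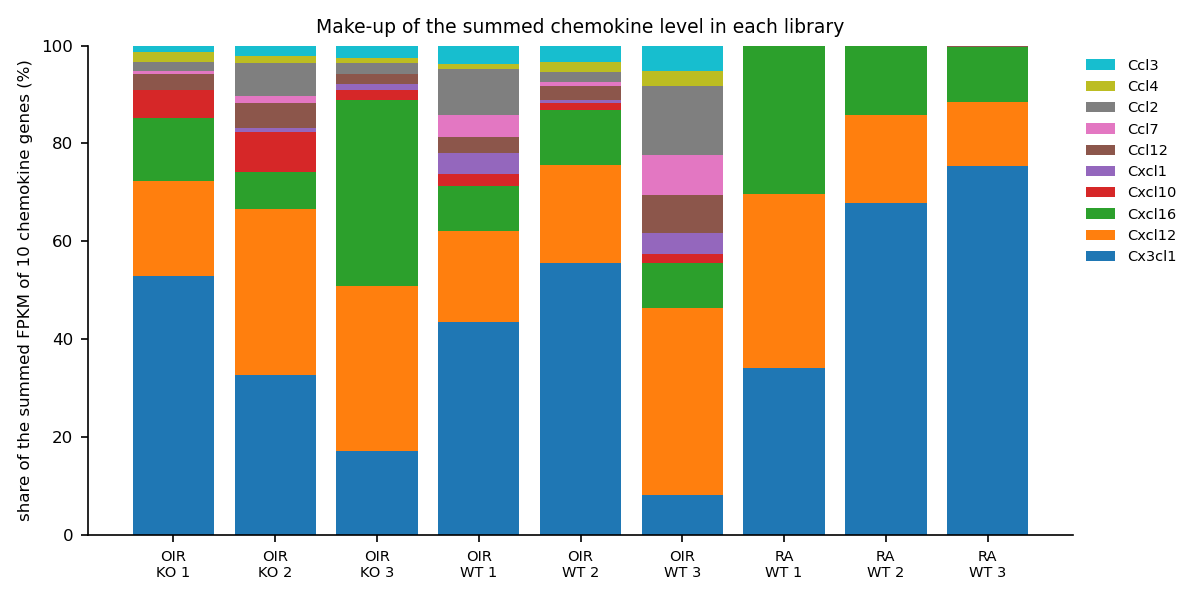
Share of each gene, in percent, in the summed FPKM of the 10 chemokine genes, with 1 bar per library in the order OIR KO, OIR WT and RA WT. Cx3cl1, Cxcl12 and Cxcl16 fill at least 99.7% of the bar in RA WT and between 55.5 and 88.9% in retinopathy, and the 7 inducible genes fill the rest.

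Of 23 chemokine receptor genes, 7 passed the filter, and Cxcr4 alone rose. Over all tested genes, 4.75% were called higher in OIR KO and 8.04% in OIR WT, so this count is no result about receptors as a group. Cxcr4, the receptor of Cxcl12 and a marker of endothelial tip cells, was at 6.85, 8.35 and 5.09 FPKM in OIR KO and at 7.23, 7.79 and 8.70 FPKM in OIR WT, against 1.95, 2.11 and 1.71 FPKM in RA WT. All 6 retinopathy libraries lay above all room-air libraries, while its ligand Cxcl12 overlapped between the groups. The mean was 3.51 times that of RA WT in OIR KO (log2 difference 1.56, SE 0.17, adjusted p = 0.00159) and 4.10 times in OIR WT (1.79, SE 0.17, adjusted p = 0.000511). Both calls held without any single one of the 6 libraries compared. Between the genotypes the log2 difference was -0.23 (95% interval -0.60 to 0.14, adjusted p = 0.696).

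Ackr1, a scavenging receptor of many inflammatory chemokines, was at 79.9, 71.7 and 93.1 FPKM in OIR KO and at 47.5, 53.9 and 53.1 FPKM in OIR WT, against 77.6, 99.9 and 79.3 FPKM in RA WT. It fell in OIR WT (log2 difference -0.72, SE 0.13, adjusted p = 0.00647) and stayed within the room-air range or just below it in OIR KO. The OIR KO libraries lay above every OIR WT library, but the difference between the genotypes was not called (0.65, adjusted p = 0.126). Ackr1 overlaps Cadm3 on the same strand, so reads may have been shared between them. Cadm3 was also lower in OIR WT than in RA WT (log2 difference -0.71, adjusted p = 0.0173). The part of shared reads in these values was not tested.

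Cx3cr1, the receptor of Cx3cl1 on microglia, was at 0.726, 2.07 and 1.65 FPKM in OIR KO and at 2.23, 2.88 and 2.44 FPKM in OIR WT, against 1.32, 1.18 and 1.44 FPKM in RA WT. OIR WT lay wholly above both other groups, yet no comparison was called (adjusted p = 0.423 for OIR KO against OIR WT and 0.0703 for OIR WT against RA WT). The span of Cx3cr1 overlaps 9 other genes on either strand. Ackr2, Ackr3, Ccr9 and Ccr10 were not called in any comparison. The leukocyte receptors of the inducible ligands were barely present: Ccr1 did not exceed 0.228 FPKM, Ccr2 0.238 FPKM, Cxcr2 0.0332 FPKM and Cxcr3 0.0279 FPKM in any library.

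**Figure D5:**
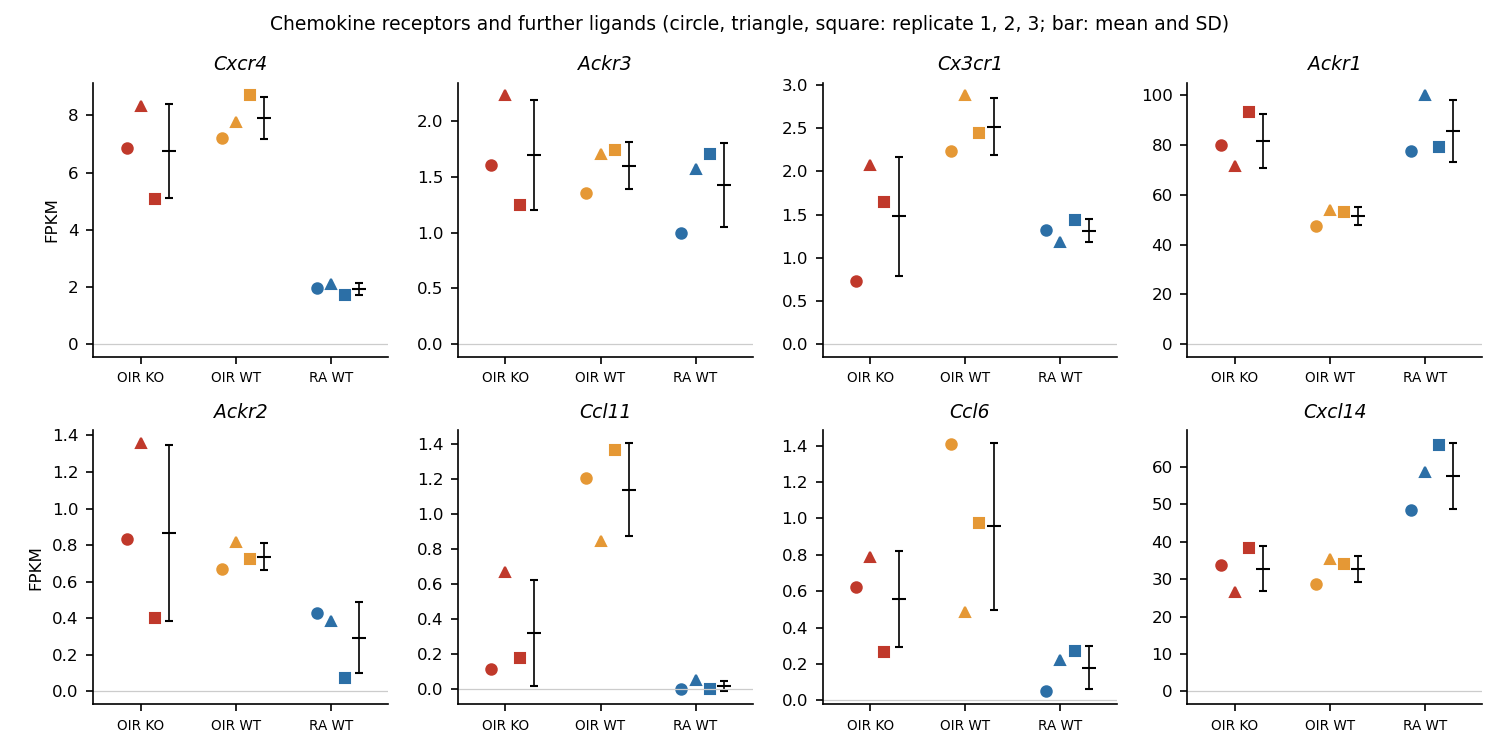
FPKM of the receptors Cxcr4, Ackr3, Cx3cr1, Ackr1 and Ackr2 and of the ligands Ccl11, Ccl6 and Cxcl14 in the 9 libraries, with OIR KO, OIR WT and RA WT from left to right; circle, triangle and square are replicates 1, 2 and 3, and the bar is the mean and SD (n = 3). Cxcr4 is between 5.09 and 8.70 FPKM in retinopathy and at most 2.11 FPKM in room air, and Cxcl14 is lower in all 6 retinopathy libraries than in RA WT.

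Of 28 further ligand genes, 5 were listed at 0 in every library and 9 were tested. In OIR KO against RA WT none rose and Cxcl14 fell, and in OIR WT against RA WT Ccl11 and Ccl6 rose and Cxcl14 fell. Over all tested genes, 4.75% were called higher and 5.69% lower in OIR KO, and 8.04% and 7.92% in OIR WT. Ccl11 and Ccl6 passed the filter through retinopathy libraries alone, so their calls are no measure of how often such ligands respond. Ccl11 (eotaxin), which attracts eosinophils through Ccr3, lies between Ccl7 and Ccl12 on chromosome 11. It was at 0.117, 0.672 and 0.179 FPKM in OIR KO and at 1.21, 0.846 and 1.37 FPKM in OIR WT, against 0, 0.0521 and 0 FPKM in RA WT. All OIR WT libraries lay above all OIR KO libraries, and these above RA WT.

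The log2 difference of Ccl11 from RA WT was 0.61 in OIR KO (SE 0.25, adjusted p = 0.143) and 1.65 in OIR WT (SE 0.25, adjusted p = 0.00363), and it was -1.04 between OIR KO and OIR WT (SE 0.25, adjusted p = 0.211). Without OIR KO 2 the difference between the genotypes was -1.33 and passed the test (adjusted p = 0.0395), and without any other single library it did not (adjusted p from 0.222 to 0.638). Cxcl14, a ligand expressed by many epithelia and in the nervous system, was at 33.7, 26.4 and 38.2 FPKM in OIR KO and at 28.8, 35.3 and 34.1 FPKM in OIR WT, against 48.3, 58.5 and 65.9 FPKM in RA WT. It fell by 0.81 on the log2 scale in OIR KO (SE 0.15, adjusted p = 0.0124) and by 0.80 in OIR WT (SE 0.15, adjusted p = 0.00933), and the difference between the genotypes was -0.01 (95% interval -0.35 to 0.34, adjusted p = 0.994). Without RA WT 3 the OIR KO call was lost (adjusted p = 0.0513).

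Ccl6 was at 0.623, 0.786 and 0.268 FPKM in OIR KO and at 1.41, 0.488 and 0.975 FPKM in OIR WT, against 0.0482, 0.219 and 0.273 FPKM in RA WT. It rose in OIR WT (log2 difference 1.06, SE 0.28, adjusted p = 0.0297), a call that was kept only without OIR WT 2 among the 6 libraries left out in turn. Ccl9, Ccl25, Ccl27a, Ccl28, Cxcl13 and the platelet chemokine Pf4 were not called in any comparison. The sheddases Adam10 and Adam17, which release Cx3cl1 and Cxcl16 from the membrane, were not called either. Dpp4, which trims Cxcl10 and Cxcl12, did not pass the filter. Its range was 0.290 to 0.444 FPKM in OIR KO and 0.135 to 0.374 FPKM in OIR WT, against 0.478 to 0.527 FPKM in RA WT.

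Of 27 inducers and regulators of chemokine genes, 21 were tested. In OIR KO against RA WT, where 4.75% of all tested genes were called higher, Irf1, Irf7 and Stat3 rose and none fell. The Irf7 call held without any single one of the 6 libraries compared, that of Irf1 was lost without OIR KO 1 (adjusted p = 0.0949), OIR KO 2 (0.0982), RA WT 1 (0.0554) or RA WT 3 (0.102), and that of Stat3 without RA WT 1, 2 or 3 (0.0522, 0.0542 and 0.0672). In OIR WT against RA WT, where 8.04% of all tested genes were called higher, 12 rose and none fell. Among the 12 were Bcl3, Csf1, Irf1, Irf7, Lif, Nfkb2, Relb, Socs3, Stat3, Tnfrsf1a and Zfp36. Lif passed the filter through retinopathy libraries alone. Of these named genes, Irf7, Lif and Stat3 kept their call without any single one of the 6 libraries compared, and each of the others lost it without at least 1 of OIR WT 1, OIR WT 3 and the RA WT libraries (adjusted p up to 0.109, for Csf1). None was called between OIR KO and OIR WT by limma, where Lif (lower in OIR KO) and Irf7 and Epas1 (higher in OIR KO) had an unadjusted p under 0.05. The median log2 difference of the 21 was 0.74 for OIR KO against RA WT, -0.15 for OIR KO against OIR WT and 0.84 for OIR WT against RA WT, beside 0.02, -0.00 and 0.01 over all tested genes.

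Irf7, an amplifier of the interferon response, was at 33.4, 26.9 and 21.2 FPKM in OIR KO and at 17.1, 24.0 and 20.5 FPKM in OIR WT, against 7.03, 7.12 and 7.20 FPKM in RA WT. It rose by a log2 difference of 1.84 in OIR KO (SE 0.16, adjusted p = 0.000868) and 1.45 in OIR WT (SE 0.16, adjusted p = 0.00126). Stat3, the transcription factor downstream of Lif and interleukin 6, was at 26.9, 58.3 and 28.9 FPKM in OIR KO and at 48.8, 32.4 and 56.5 FPKM in OIR WT, against 12.7 to 13 FPKM in RA WT. Its log2 difference from RA WT was 1.45 in OIR KO (SE 0.30, adjusted p = 0.0197) and 1.77 in OIR WT (SE 0.30, adjusted p = 0.00715).

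Bcl3 had a log2 difference from RA WT of 3.23 in OIR KO (SE 0.88, adjusted p = 0.0553) and 4.55 in OIR WT (SE 0.88, adjusted p = 0.0131), and Socs3 of 1.95 (SE 0.83, adjusted p = 0.172) and 3.26 (SE 0.83, adjusted p = 0.0333). The Socs3 call in OIR WT was lost without OIR WT 1, OIR WT 3 or any RA WT library (adjusted p from 0.0831 to 0.105), and that of Bcl3 without OIR WT 1 (0.0531) or RA WT 2 (0.0510). Bcl3 in OIR KO passed the test without OIR KO 3 (adjusted p = 0.0405) or OIR WT 2 (0.0470). Lif, a cytokine of stressed Müller glia, was at 0.610, 1.88 and 0.345 FPKM in OIR KO and at 1.90, 1.42 and 5.24 FPKM in OIR WT, against 0.0459, 0.0852 and 0.177 FPKM in RA WT, and rose in OIR WT (log2 difference 2.31, SE 0.46, adjusted p = 0.0122). The classic inducers were low and did not pass the filter. Tnf was at 0.277, 0.155 and 0 FPKM in OIR KO and at 0.214, 0.0309 and 0.110 FPKM in OIR WT. In RA WT, Tnf was listed at 0 in all libraries. Il1a did not exceed 0.686 FPKM, Il1b 0.162 FPKM and Il6 0.119 FPKM. Ifng and Ifnb1 were listed at 0 in every library. Hif1a was abundant, between 96.3 and 123 FPKM, and was not called in any comparison.

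Markers of the cells that make or answer chemokines were set beside these values. In whole-retina RNA, more cells of a type and more RNA per cell cannot be told apart. Of 16 microglia and macrophage markers, 12 were tested. In each retinopathy group 7 rose over RA WT, among them C1qa, Cd68, Csf1r, Lyz2, Trem2 and Tyrobp, and Lyve1 fell. Over all tested genes, 4.75% were called higher and 5.69% lower in OIR KO, and 8.04% and 7.92% in OIR WT. Cd68, a lysosomal protein of phagocytes, was at 4.98, 7.04 and 3.10 FPKM in OIR KO and at 6.99, 4.18 and 8.20 FPKM in OIR WT, against 1.25, 2.14 and 1.16 FPKM in RA WT. Lyz2, the lysozyme of myeloid cells, was at 4.23, 6.41 and 2.58 FPKM in OIR KO and at 6.04, 6.01 and 7.97 FPKM in OIR WT, against 0.748, 0.607 and 0.844 FPKM in RA WT. Every retinopathy library exceeded every room-air library in both, and OIR KO 3 was the lowest of the retinopathy libraries. P2ry12 and Tmem119, markers of resting microglia, were not called in any comparison.

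Markers of blood leukocytes were close to 0. The monocyte marker Plac8 was at 0.0650 to 0.666 FPKM in OIR KO and 0.371 to 0.408 FPKM in OIR WT, against 0 to 0.0748 FPKM in RA WT. Ly6c2 was at 0 to 0.297 FPKM in OIR KO and 0 to 0.154 FPKM in OIR WT, against 0 to 0.0676 FPKM in RA WT, and neither was tested. The 7 neutrophil markers summed to 0.929 to 1.53 FPKM in OIR KO and 1.08 to 2.22 FPKM in OIR WT. In RA WT the sum was 0.498 to 0.567 FPKM, nearly all of it Csf3r (0.481 to 0.567 FPKM), which was not called. S100a8 and S100a9 were listed at 0 in RA WT and in OIR KO 1. They reached 0.425 and 0.478 FPKM in OIR KO and 0.563 and 1.17 FPKM in OIR WT. Elane was listed at 0 in every library. The 7 T and NK cell markers summed to 0.743 to 1.046 FPKM in OIR KO and 1.04 to 1.12 FPKM in OIR WT. In RA WT they summed to 0.446 to 0.670 FPKM. Most of this sum was Cd8a, the only marker of the list that was tested, which rose in OIR WT against RA WT. Cd8a passed the filter through retinopathy libraries alone. Cd3d and Cd3e did not exceed 0.0351 FPKM, and Nkg7 and Gzma did not exceed 0.0787 FPKM, in any library. Gzmb was listed at 0 throughout. The part of microglia, macrophages and blood leukocytes in the chemokine levels was not tested.

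Endothelial markers summed to 89.6 to 109.9 FPKM in OIR KO and 61.3 to 82.9 FPKM in OIR WT, against 50.1 to 66.2 FPKM in RA WT, and pericyte markers to 65.6 to 101 FPKM in OIR KO and 68.8 to 90.0 FPKM in OIR WT, against 35.6 to 45.0 FPKM in RA WT. The summed Müller glia markers ran the other way. They were at 791 to 1166 FPKM in OIR KO and 551 to 899 FPKM in OIR WT, against 1317 to 1714 FPKM in RA WT. Glul held most of this sum, with means of 724, 484 and 1156 FPKM in OIR KO, OIR WT and RA WT. Of the 6 markers, Abca8a and Kcnj10 fell in OIR KO against RA WT, where 5.69% of all tested genes were called lower. In OIR WT, where 7.92% of all tested genes were called lower, Abca8a, Aqp4, Glul, Kcnj10 and Rlbp1 fell. Slc1a3 was not called in any comparison. The endothelial sum overlapped between OIR WT and RA WT, with OIR WT 2 at 61.3 FPKM, and lay wholly above RA WT in OIR KO, while the pericyte sum lay wholly above RA WT in both. Of the 6 endothelial markers, 5 rose in OIR KO (Cdh5, Cldn5, Emcn, Pecam1 and Tie1), beside 4.75% of all tested genes. Of the same endothelial markers, 3 rose in OIR WT (Cdh5, Emcn and Tie1), beside 8.04%. Their part in the Cxcr4 increase was not tested.

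For each tested member the 2 genes with the most similar course over the 9 libraries, by Pearson's r of log2(FPKM + 0.5), were found among all tested genes. These values describe the libraries only, since group differences and the same few high libraries enter each of them. Ccl2 was closest to Adamts4, an aggrecan-cleaving protease (r = 0.998), and to Rbm17 (0.995). Adamts4 was at 1.28, 2.74 and 1.14 FPKM in OIR KO and at 3.01, 1.44 and 3.66 FPKM in OIR WT, against 0.812, 0.751 and 0.829 FPKM in RA WT. Ccl3 was closest to Tiparp (0.993) and Asb16 (0.992), Ccl4 to Rara (0.973) and Lsp1 (0.968), Ccl7 to Rap2b (0.975) and Afg3l2 (0.975), and Ccl12 to Meox1 (0.988) and Clic1 (0.988).

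Cxcl10 was closest to Eif2ak2 (r = 0.977), an interferon-induced kinase that senses double-stranded RNA, and to Foxc1 (0.976). Eif2ak2 was at 2.003, 2.81 and 1.19 FPKM in OIR KO and at 1.84, 1.40 and 1.84 FPKM in OIR WT, against 0.865, 0.959 and 0.856 FPKM in RA WT, so that it shared with Cxcl10 the high values of OIR KO 1 and OIR KO 2 and the low value of OIR KO 3. Cxcl12 was closest to Farsb (0.947) and Aldh1a3 (0.939), Cxcl16 to Slc35f3 (0.983) and Ap3m2 (0.982), and Cx3cl1 to Tgfbr3 (0.952) and Smad6 (0.943).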

How the data were processed

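Total RNA of mouse retinas was extracted with Trizol and made into libraries with a NEBNext Ultra kit, per the labels' protocols. The deposited values are FPKM per gene in 9 libraries, and HISAT2 and the GRCm38 build are named per the submitters' processing notes. Not given in the sources used here are the HISAT2 version, the quantifier, the annotation release and the strand setting. Whole reads could not be recovered from the values (32.9 to 38.6% of low values lay within 0.02 of a whole step), so depth is unknown and no count test was run.

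Groups came from sample titles. limma 3.58.1 (R 4.3.3), with mean-variance trend and robust empirical Bayes, was fitted to log2(FPKM + 0.5) of all 9 libraries over the 15678 genes with at least 0.5 FPKM in at least 3 libraries, with two-sided tests adjusted by Benjamini and Hochberg. Cxcl1, which missed the filter, was given an exact permutation test. Intervals are 95%. Python 3.11.15, pandas 2.3.3, numpy 2.4.6, scipy 1.17.1 and matplotlib 3.10.9 did the rest, and the scripts were tested on simulated data. Gene positions are from GENCODE M21 (GRCm38), which held 22022 of 22036 Ensembl identifiers, and promoter windows from RefSeq (6 of 10 members matched).

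The members and the gene lists were chosen with earlier results of these data known. Named were all members, the tested receptors and other ligands, the regulators called in any comparison (a few listed genes are not reported here), and the 2 closest genes of each tested member. Some were given as names or counts only, and genes below the filter, with Epas1, were added after their values were seen. Alternatives were the pseudocount, filter, scaling, variance model, libraries in the fit, replicate block, a Y-linked covariate and leaving out each library.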

Additional observations from a re-analysis of the deposited data

How the results depend on the processing

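Over the 10 members and 3 comparisons, 457 alternative log2 differences kept their sign and, for tested members, their side of the threshold. Values of the untested Cxcl1 were counted among these if they moved by less than its spread, the larger SD of the groups compared. Of the others, 55 lost the threshold, 10 gained it and 10 turned sign. The remaining 2, of Cxcl1, moved by more than its spread with a pseudocount of 0.1 (same sign). The turned values were all of uncalled differences and came from leaving out a library. In OIR KO against RA WT, Cxcl12 was -0.48 without OIR KO 2 and -0.04 without RA WT 1 (range -0.48 to 0.50). In OIR KO against OIR WT, Ccl4 was 0.0778 (range -0.49 to 0.0778), Ccl12 0.13 (-0.92 to 0.13), Cxcl12 0.26 (-0.72 to 0.26) and Cx3cl1 0.77 (-0.94 to 0.77) without OIR KO 3, Cxcl12 was 0.18 without OIR WT 3, and Cx3cl1 was 0.27 without OIR WT 1 and 0.19 without OIR WT 2. In OIR WT against RA WT, Cxcl12 was -0.11 without OIR WT 3 (range -0.11 to 0.50).

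Members called in OIR KO against RA WT numbered 2. They were 5 with a pseudocount of 0.1 (Ccl4, Ccl12 and Cxcl10 added), 1 with a pseudocount of 1, without a filter or after quantile normalization, 0 with the Y-linked covariate or with only the 6 libraries compared, and 0 to 5 with a library left out. In OIR WT against RA WT they numbered 6, and 3 with a pseudocount of 1, 3 with the Y-linked covariate and 2 to 7 with a library left out. In OIR KO against OIR WT they numbered 0 under every setting run.

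Genes called over the whole table numbered 1636 in OIR KO against RA WT and 709 to 1791 with a library left out (709 without OIR KO 1, 725 without OIR KO 2 and 711 without RA WT 3). They were 2503 in OIR WT against RA WT, 1581 with the Y-linked covariate and 1031 to 2814 with a library left out (1031 without OIR WT 1, 1331 without OIR WT 3, 1471 without RA WT 2 and 1414 without RA WT 3). They were 21 in OIR KO against OIR WT, 13 with a filter of 1 FPKM or without the trend and robust options, and 11 to 42 with a library left out (11 without OIR KO 3, OIR WT 1 or OIR WT 3, 12 without OIR KO 1 and 42 without OIR KO 2). The cause of these shifts was not tested. A filter of 1 FPKM removed Ccl4 and Ccl7, which then had no value.

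Replicate numbers did not pair the libraries, since deviations of same-numbered libraries correlated between -0.353 and 0.134. With the replicate block, genes called were 1081 in OIR KO against RA WT, 8 in OIR KO against OIR WT and 1692 in OIR WT against RA WT, and members called were 0, 0 and 2. Depth is unknown, and levels of the inducible members in room air and in OIR KO 3 are near the lowest values the files resolve.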

Other observations

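Of the further ligands below the filter, 14 were above 0 in at least 1 library, with no common direction. Ccl5, a T cell and macrophage attractant, was at 0.408, 0.943 and 0.284 FPKM in OIR KO and at 0.336, 0 and 0.319 FPKM in OIR WT, against 0, 0.168 and 0 FPKM in RA WT. Cxcl2, a neutrophil attractant that shares the receptor Cxcr2 with Cxcl1, was at 0.203, 0.161 and 0.0260 FPKM in OIR KO and at 0.820, 0.0934 and 0.304 FPKM in OIR WT, against 0, 0 and 0.0167 FPKM in RA WT. Cxcl9, which like Cxcl10 is an interferon-induced ligand of Cxcr3, was listed above 0 only in OIR KO 2, at 0.0444 FPKM. Ccl8, which lies next to Ccl12, was above 0 only in OIR WT 1 (0.198 FPKM) and OIR WT 2 (0.190 FPKM). Ccl17 was present in room air as well, at 0.330, 0.320 and 0.282 FPKM in OIR KO and at 0, 0.263 and 0.117 FPKM in OIR WT, against 0.220, 0.187 and 0.0700 FPKM in RA WT. Cxcl17 was highest in RA WT 3 (0.157 FPKM) and otherwise above 0 only in OIR KO 3 (0.0484 FPKM), and Ccl22 was above 0 only in RA WT 1 (0.0417 FPKM). None of these was tested, and they were chosen after their values were seen.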
